A study of Homo sapiens with 6 samples.

Results

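The genes followed here carry out class I antigen presentation, the display of cytosolic peptides at the cell surface: the heavy chains *HLA-B*, *HLA-C* and *HLA-E*, the light chain *B2M*, the peptide transporter subunits *TAP1* and *TAP2*, the loading factor *TAPBP* (tapasin) and *NLRC5*, a transcriptional coactivator of class I genes. They were taken by gene symbol, and all 8 were found among the 59050 gene rows of the count table. After a filter on low counts 18126 genes were tested, 7 of the 8 among them, and *NLRC5* was too low to be tested. Further genes of the pathway are described after them.

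Class I molecules consist of a polymorphic heavy chain that is stable at the cell surface only with *B2M* and a bound peptide. Proteasomes, or immunoproteasomes after interferon gamma, cut proteins into peptides, *TAP1* and *TAP2* pump these into the endoplasmic reticulum, and tapasin holds the empty heavy chain at the transporter while a peptide is loaded. Transcription of these genes depends on interferon-responsive elements bound by IRF factors, and on a promoter module bound by RFX, CREB/ATF and NF-Y, where *NLRC5* is recruited. Pluripotent stem cells are known for low class I expression, which matters for how T cells and NK cells meet grafts made from them.

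The libraries came from HUES8, a long-established line of human embryonic stem cells, sampled at 3 stages with 2 libraries each: undifferentiated cells (PSC) kept in mTeSR1 on Matrigel, endoderm cells induced for 2 days (D2), and definitive endoderm (DE), for which the labels name no day. Induction used DMEM-F12 with bovine serum albumin, the TGF-beta family ligand activin A (100 ng/mL) and, for the opening 24 h, CHIR99021, which blocks GSK3 and so turns on WNT signaling and was then left out. All libraries came from this single unmodified line, and the RNA from the precipitate left after metabolites were extracted. Total counts were 12351684 and 15849872 in PSC, 15000970 and 14843365 in D2, and 15490713 and 15970973 in DE, and levels are given as CPM, the counts of a gene as a rate over the TMM-scaled library total. No label says that the libraries of a stage were separate cultures, so p-values measure only the spread between these libraries, which may be technical.

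The stage labels were checked against markers. The pluripotency markers *POU5F1*, *SOX2* and *NANOG* summed to 662 and 799 CPM in PSC, 777 and 720 in D2, and 216 and 222 in DE, and all 3 were lower in DE than in PSC. The endoderm markers *FOXA2*, *SOX17*, *CXCR4*, *GATA6* and *CER1* summed to 5.78 and 8.49 CPM in PSC and to 6421 and 7123 CPM in DE, and all 5 rose at both steps. Of these sums *CER1* made up 5433 and 6167 CPM in DE.

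Promoter sequences for 6 of the 8 genes, all but *HLA-E* and *NLRC5*, were matched in RefSeq (GRCh38.p14). Those of *HLA-B* and *HLA-C* are shown because the promoters are near copies while the genes moved in opposite directions in DE. That of *B2M* is shown because its rise at D2 alone passed the test described below, and that of *TAP2* because it had the largest fall. Each is the 200 bases before the RefSeq start, 5′ to 3′ on the strand of the gene, with motif matches in capitals: *HLA-B* at chr6:31357180-31357379 (minus strand), *HLA-C* at chr6:31272093-31272292 (minus strand), *B2M* at chr15:44711317-44711516 (plus strand) and *TAP2* at chr6:32838740-32838939 (minus strand).
HLA-B: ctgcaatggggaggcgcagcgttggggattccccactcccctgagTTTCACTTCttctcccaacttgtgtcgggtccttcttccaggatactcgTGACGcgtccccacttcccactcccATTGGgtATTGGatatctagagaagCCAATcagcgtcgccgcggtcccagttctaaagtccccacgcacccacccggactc
HLA-C: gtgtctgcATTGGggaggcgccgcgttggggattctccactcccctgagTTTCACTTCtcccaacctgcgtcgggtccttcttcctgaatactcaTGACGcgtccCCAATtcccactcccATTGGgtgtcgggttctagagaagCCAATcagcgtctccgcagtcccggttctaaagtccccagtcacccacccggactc
B2M: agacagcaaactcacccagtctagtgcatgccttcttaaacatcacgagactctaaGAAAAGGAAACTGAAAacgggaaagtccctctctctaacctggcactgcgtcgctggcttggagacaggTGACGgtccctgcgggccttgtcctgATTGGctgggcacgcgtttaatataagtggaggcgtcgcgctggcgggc
TAP2: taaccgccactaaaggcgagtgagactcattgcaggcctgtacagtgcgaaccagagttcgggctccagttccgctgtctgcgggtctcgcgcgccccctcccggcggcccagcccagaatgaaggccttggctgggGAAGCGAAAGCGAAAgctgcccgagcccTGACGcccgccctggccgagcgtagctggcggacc

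The capitals mark 3 motifs, searched on both strands in the 250 bases before and 50 after each start with letters chosen after the sequences had been seen. These are an interferon-stimulated response element (ISRE) spelled GAANNGAAA, or with an added A before the N bases, the CRE core TGACG bound by CREB/ATF factors, and the CCAAT box bound by NF-Y. Matches to the ISRE spellings overlapped each other in *B2M*, *TAP1*, *TAP2* and *TAPBP*, and no match to 1 motif overlapped a match to another. An ISRE match stood in a promoter of all 6 genes and in 10.6% of 35116 RefSeq promoters of the same length. A CRE core stood in 4 of 6 and 24.6%, and a CCAAT box in 4 of 6 and 34.6%. The genes were counted by a match in any promoter, while the shares count every promoter. In *HLA-B* and *HLA-C* the ISRE began 155 and 151 bases before the start, the CRE core 106 and 105 bases before it and the last CCAAT box 56 bases before it in both. *HLA-B* had its other CCAAT boxes at 81 and 74 bases before the start, and *HLA-C* at 192, upstream of the ISRE, 95 and 80. Their printed bases were identical in 179 of 204 aligned columns (87.7%). *B2M* carried all 3 motifs, *TAP2* an ISRE and a CRE core, and *TAPBP* an ISRE that began 20 bases before the start. *TAP1* has 2 RefSeq promoters, with an ISRE and a CCAAT box in 1 and no match in the other. A match is a run of letters and not a measured binding site.

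**Figure D1:**
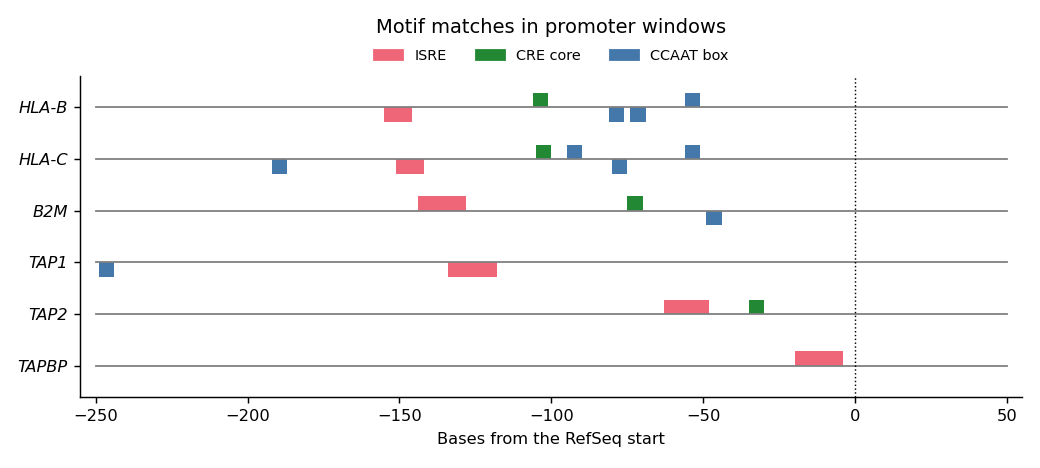
Motif matches in the promoters of 6 class I genes, in bases from the RefSeq start (dotted line). Boxes above a line are on the strand of the gene and boxes below it on the other strand, and the ISRE box of HLA-B and HLA-C lies over 140 bases before the start while that of TAPBP lies within 20 bases of it.

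Counts were compared by edgeR's quasi-likelihood test on all 6 libraries, p-values were adjusted by Benjamini-Hochberg over 18126 genes, and an adjusted p under 0.05 was a call. At D2 against PSC 2 of the 7 genes tested passed, *B2M* upward and *HLA-C* downward, where 49.9% of all genes tested passed. In DE against PSC 5 of 7 passed, *HLA-B* upward and *HLA-C*, *TAP1*, *TAP2* and *TAPBP* downward, where 67.8% of all genes passed and 32.7% passed downward. In DE against D2 5 of 7 passed, *HLA-B* upward and *B2M*, *TAP1*, *TAP2* and *TAPBP* downward, where 59.3% passed and 29.3% passed downward. The median log2 fold change of the 7 was -0.17, -0.73 and -1.12 in these comparisons, beside 0.02, 0.02 and -0.02 over all genes tested. The comparisons share libraries, so their counts are not independent. The share of counts from mtDNA-encoded genes moved with the stage, at 29.4% and 27.6% in PSC, 25.8% and 25.7% in D2, and 20.9% and 22.8% in DE, and without those genes every class I gene tested kept its direction and its side of the threshold. In these bulk libraries fewer cells that express a gene and less RNA per cell cannot be told apart.

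**Figure D2:**
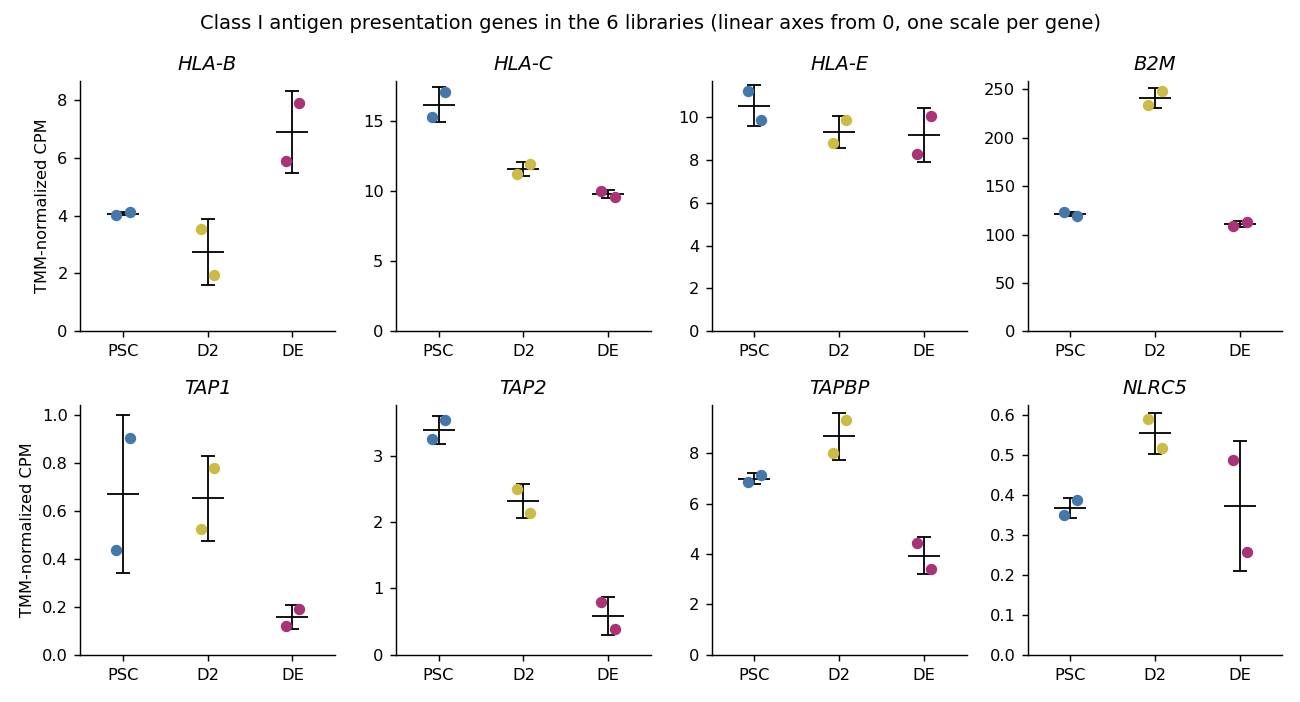
TMM-normalized CPM of the 8 genes in each library (points) with the mean and SD of each stage (bars, n = 2), on linear axes that begin at 0. B2M stands at 233.9 and 248.5 CPM in D2 and below 123 CPM in the other 4 libraries, and TAP1 and TAP2 are lowest in the DE libraries.

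*HLA-B*, a classical heavy chain that presents peptides to CD8 T cells, lies at chr6:31353872-31367067 on the minus strand (GRCh38, GENCODE 44) and has 8 exons in its canonical transcript. Its level was 4.03 and 4.12 CPM in PSC, 3.54 and 1.94 CPM in D2, and 5.91 and 7.91 CPM in DE, from 30 to 123 counts a library. Both DE libraries stood above the 4 others, and the D2 libraries were below PSC and apart from each other. *HLA-B* rose from PSC to DE by 0.76 ± 0.24 on the log2 scale (standard error; 1.69-fold; adjusted p = 0.00575, edgeR) and from D2 to DE by 1.33 ± 0.25 (2.51-fold, adjusted p = 3.5e-05). At D2 against PSC the log2 fold change was -0.57 ± 0.27 and missed the threshold (adjusted p = 0.0786). The rise over PSC was no longer called without DE replicate 2 (0.55, adjusted p = 0.0992) or by DESeq2 (0.78, adjusted p = 0.0793). The D2 value was a call without D2 replicate 1 (-1.06, adjusted p = 0.00782) and was -0.20 without D2 replicate 2 (adjusted p = 0.612), and the rise from D2 to DE ranged from 0.96 without D2 replicate 2 to 1.83 without D2 replicate 1.

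*HLA-C*, the classical heavy chain that is also the main ligand of inhibitory KIR receptors on NK cells, lies at chr6:31268749-31272130 on the minus strand. Its level was 15.2 and 17.1 CPM in PSC, 11.2 and 11.9 CPM in D2, and 9.98 and 9.59 CPM in DE, from 149 to 265 counts a library. The 3 stages did not overlap, with PSC highest and DE lowest. *HLA-C* fell by 0.73 on the log2 scale from PSC to DE (standard error 0.14, adjusted p = 6.1e-05, edgeR) and was called in DE under every alternative analysis run. From PSC to D2 it fell by 0.49 (standard error 0.14, adjusted p = 0.00516), a call that ended without PSC replicate 2 (adjusted p = 0.0794), with library size scaling (0.0581), with DESeq2 (0.068) and with limma on TPM values (0.146 and 0.136 with pseudocounts of 0.1 and 1). Between D2 and DE the value of -0.24 missed the threshold (95% interval -0.54 to 0.06, adjusted p = 0.157).

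*HLA-E*, a nonclassical heavy chain that presents leader peptides of other class I chains to NKG2A receptors on NK cells, lies at chr6:30489509-30494194 on the plus strand. Its level was 11.2 and 9.84 CPM in PSC, 8.79 and 9.84 CPM in D2, and 8.28 and 10.04 CPM in DE. The DE libraries overlapped those of both other stages, and the lower PSC library was level with the higher D2 library. No comparison was called, with log2 fold changes of -0.17 (95% interval -0.50 to 0.16) at D2 against PSC, -0.20 (-0.53 to 0.13) in DE against PSC and -0.03 (-0.36 to 0.30) in DE against D2. The sign in DE against PSC turned under limma on TPM values and the value was called under upper quartile scaling.

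Among these 3 heavy chains, taken per kb of canonical transcript, *HLA-B* made up 15.5% and 15.2% in PSC, 17.7% and 9.84% in D2, and 28.3% and 33.7% in DE. *HLA-C* made up 58.5% and 62.8% in PSC and 47.7% and 40.6% in DE. The summed level of the 3 was 16.9 and 17.6 CPM per kb in PSC, 13.0 and 12.9 in D2, and 13.6 and 15.3 in DE, and was highest in the PSC libraries. HLA genes are polymorphic and near copies of each other, and how reads with several matches were counted is not given in the sources used here. Of the 50-base windows of the canonical transcript, 2.56% in *HLA-B*, 6.76% in *HLA-C* and 6.16% in *HLA-E* also occurred in a transcript of another gene in GENCODE 44, so HLA counts are uncertain. The pseudogene *DHFRP2*, with 0 counts in every library, covers 30.7% of the exon bases of *HLA-B* in GENCODE 44. A pseudogene on the other strand that is not a row of the count table covers 14.5%.

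*B2M*, the light chain shared by all class I molecules, lies outside the HLA region at chr15:44711358-44718851 on the plus strand and shared no 50-base window with another gene. Its level was 123 and 120 CPM in PSC, 233.9 and 248.5 CPM in D2, and 109 and 113 CPM in DE, from 1402 to 3838 counts a library. Both D2 libraries stood near 2 times the level of the others, and the DE libraries lay just below PSC. *B2M* rose from PSC to D2 by 0.99 ± 0.09 on the log2 scale (1.99-fold, adjusted p = 8.1e-10, edgeR) and fell from D2 to DE by 1.12 (standard error 0.09, adjusted p = 4.8e-11), and both were called under every alternative run. In DE against PSC the value was -0.13 (95% interval -0.32 to 0.06, adjusted p = 0.226), and it depended on the method: it was -0.30 and called under upper quartile scaling (adjusted p = 0.00738), which moved the median of all genes to -0.15, stayed below 0 under the other scalings of the counts, and was 0.12 and 0.11 under limma on TPM values, which moved that median to 0.32 and 0.29. 

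The ratio of *B2M* to the 3 heavy chains, each per kb of canonical transcript, was 7.70 and 7.20 in PSC, 19.0 and 20.5 in D2, and 8.49 and 7.81 in DE. With the deposited gene lengths it was 1.80 and 1.71, 4.45 and 4.67, and 2.04 and 1.88. The size of the ratio thus depends on the length used, since the deposited length of *B2M* is 6079 bases and its canonical transcript 943 bases, but with either length both D2 libraries stood above the 4 others.

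**Figure D3:**
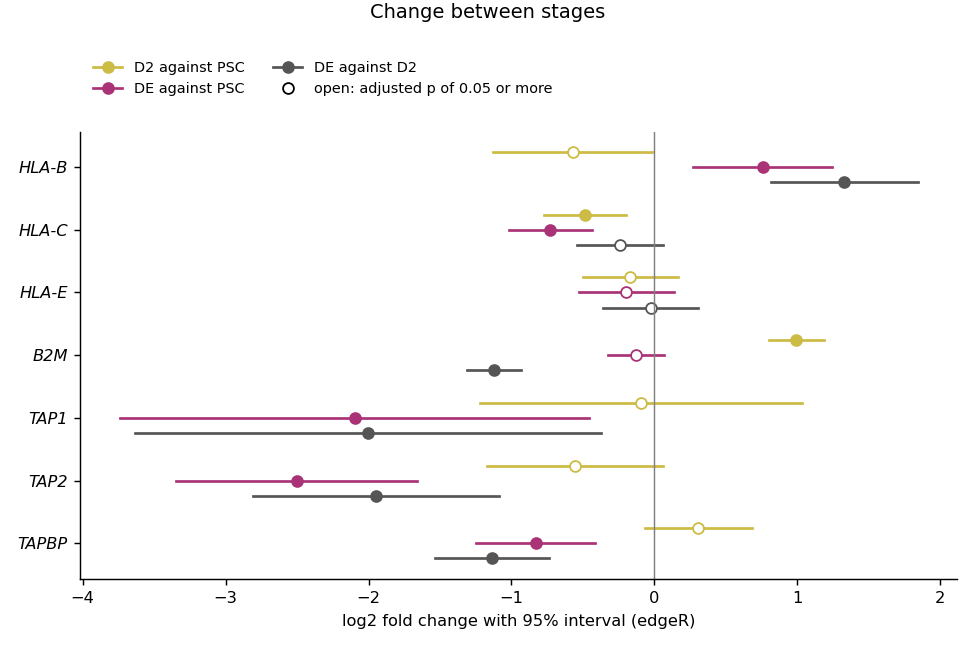
Log2 fold changes of the 7 genes tested in the 3 comparisons with 95% intervals from edgeR. Filled points passed an adjusted p under 0.05. B2M is at 0.99 at D2 and back near 0 in DE, TAP1 and TAP2 are at -2.10 and -2.50 in DE against PSC, and HLA-B alone lies to the right in DE.

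*TAP2*, the transporter subunit that pairs with *TAP1*, lies at chr6:32821833-32838739 on the minus strand. Its level was 3.24 and 3.54 CPM in PSC, 2.49 and 2.14 CPM in D2, and 0.791 and 0.386 CPM in DE, from 37 and 55 counts in PSC, 38 and 33 in D2, and 13 and 6 in DE. The stages did not overlap. *TAP2* fell by 2.50 on the log2 scale from PSC to DE (standard error 0.41, 5.67-fold lower, adjusted p = 1.3e-06, edgeR) and fell by 1.95 from D2 to DE (standard error 0.42, adjusted p = 1.1e-04), and both were called under every alternative that tested the gene. Without DE replicate 1 the value in DE against PSC was -3.10 and without DE replicate 2 it was -2.08. At D2 against PSC the value of -0.55 ± 0.30 missed the threshold (adjusted p = 0.124). Of its 50-base windows 35.3% also occurred in a readthrough gene, ENSG00000250264, that GENCODE 44 places over it and that is not a row of the count table.

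*TAP1*, the other subunit, lies next to it at chr6:32845209-32853816 on the minus strand. It had 5 and 14 counts in PSC, 8 and 12 in D2, and 2 and 3 in DE, which is 0.438 and 0.901 CPM, 0.525 and 0.777 CPM, and 0.122 and 0.193 CPM. Both DE libraries were at or under 3 counts and below the 4 others, while PSC and D2 overlapped. From the summed counts *TAP1* was 4.51-fold lower in DE than in PSC (95% interval 1.63 to 15.4) and 4.17-fold lower than in D2 (1.52 to 14.2), where the intervals cover counting error only. The fitted log2 fold changes were -2.10 ± 0.80 (adjusted p = 0.0108, edgeR) and -2.001 ± 0.794 (adjusted p = 0.0165). The call against PSC ended without PSC replicate 2 (-1.43, adjusted p = 0.273), without DE replicate 1 (-1.79, 0.108) and by DESeq2 (-2.09, 0.137), and that against D2 ended without D2 replicate 2 (-1.69, 0.155), without DE replicate 1 (-1.70, 0.141), without DE replicate 2 (-2.33, 0.0639) and by DESeq2 (-2.02, 0.171). At D2 against PSC the value was -0.10 ± 0.55 (adjusted p = 0.9). The antisense gene *PSMB8-AS1* covers 14.2% of the exon bases of *TAP1* and had 1 count in all 6 libraries together, and the strand setting of the counting is not given in the sources used here.

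*TAPBP* encodes tapasin, which bridges TAP and the empty class I molecule, and lies at chr6:33299694-33314284 on the minus strand. Its level was 6.84 and 7.14 CPM in PSC, 8.01 and 9.32 CPM in D2, and 4.44 and 3.41 CPM in DE, from 53 to 144 counts a library. The stages did not overlap, with D2 highest and DE lowest. *TAPBP* fell by 0.83 on the log2 scale from PSC to DE (standard error 0.20, adjusted p = 6.8e-04, edgeR) and by 1.14 from D2 to DE (standard error 0.19, adjusted p = 1.2e-05). The fall from PSC was not called by limma on TPM values (-0.57 and -0.39, adjusted p = 0.0952 and 0.101). At D2 against PSC the value of 0.31 ± 0.18 missed the threshold (adjusted p = 0.163).

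*NLRC5*, the class I transactivator of the NLR family, lies at chr16:56989485-57083531 on the plus strand and has 49 exons in its canonical transcript. It had 4 and 6 counts in PSC, 9 and 8 in D2, and 8 and 4 in DE. It was thus detected in all 6 libraries at 0.257 to 0.591 CPM, with the D2 libraries highest and the DE libraries on either side of PSC. From the summed counts the ratio was 1.49 (95% interval 0.646 to 3.65) at D2 against PSC, 1.01 (0.401 to 2.61) in DE against PSC and 0.678 (0.295 to 1.51) in DE against D2. At this depth no difference was detectable, and the intervals, which cover counting error only, leave room for changes of more than 2-fold in either direction in DE against PSC.

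Levels of different genes were compared per kb of canonical transcript. In PSC the order was *B2M* at 129 ± 2.43 CPM per kb (SD, n = 2), *HLA-C* at 10.5 ± 0.827, *HLA-E* at 4.13 ± 0.381, *HLA-B* at 2.65 ± 0.0402, *TAPBP* at 2.03 ± 0.0630, *TAP2* at 0.601 ± 0.0372, *TAP1* at 0.249 ± 0.122 and *NLRC5* at 0.0543 ± 0.00371. Each gene stood above the next in both libraries, but *HLA-B* and *TAPBP* changed places with the deposited lengths. In DE the order was *B2M* at 117 ± 3.08, *HLA-C* at 6.35 ± 0.183, *HLA-B* at 4.50 ± 0.924, *HLA-E* at 3.59 ± 0.487, *TAPBP* at 1.14 ± 0.212, *TAP2* at 0.104 ± 0.0508, *TAP1* at 0.0586 ± 0.0188 and *NLRC5* at 0.0549 ± 0.0239. There *HLA-B* and *HLA-E* overlapped, and so did neighbours among *TAP2*, *TAP1* and *NLRC5*. With the deposited lengths *HLA-E* stood above *HLA-B* in both DE libraries, at 3.13 ± 0.425 and 2.27 ± 0.465 CPM per kb, and *TAP2* above *TAP1*.

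**Figure D4:**
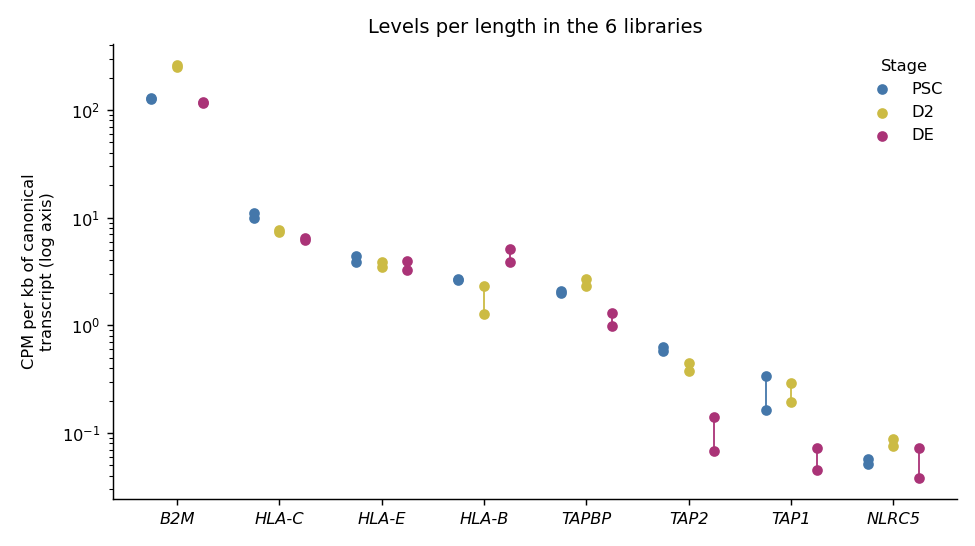
Level per kb of canonical transcript in each library on a log axis, with genes ordered by their PSC mean and the 2 libraries of a stage joined by a line. B2M lies above 100 CPM per kb in all 6 libraries, the HLA-B and HLA-E libraries overlap in DE, which they do not with the deposited lengths, and 1 of the 2 TAP2 libraries and both TAP1 libraries of DE lie within the range of NLRC5 over the 6 libraries.

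Of 36 other genes of the class I pathway 31 were tested. At D2 against PSC 11 passed (2 higher, 9 lower; 35.5%), in DE against PSC 22 (9 higher, 13 lower; 71%) and in DE against D2 19 (9 higher, 10 lower; 61.3%), to be read beside the same shares of all genes given above. The split depended on the method: limma on TPM values, which tested 25 and 23 of the genes, called 7 higher and 3 lower in DE against PSC and 9 higher and 2 lower in DE against D2, with either pseudocount, and upper quartile scaling called 7 higher and 17 lower in DE against PSC. Their median log2 fold change was -0.07, -0.11 and 0.02. *HLA-F*, a nonclassical chain, had 4 and 10 counts in PSC, 8 and 8 in D2, and 0 in both DE libraries. With DE set to a floor of 3 counts over the stage, it was 5.54-fold lower in DE than in PSC. That value leaves out the counting error of the PSC counts. *HLA-G* had at most 5 counts in any library.

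Of the 3 immunoproteasome subunits, which replace the constitutive catalytic subunits after interferon gamma, *PSMB8* and *PSMB9* were at or near 0 in DE. *PSMB8* (LMP7) had 26 and 41 counts in PSC, 12 and 12 in D2, and 0 and 2 in DE. The stages did not overlap, and the level in DE was 39.7-fold lower than in PSC from the summed counts (95% counting interval 10.6 to 335; fitted adjusted p = 8.5e-08, edgeR). It already fell by 1.65 on the log2 scale at D2 (adjusted p = 0.0015), a call that DESeq2 did not make (0.0598). *PSMB9* (LMP2), which is transcribed away from *TAP1* across a shared promoter region, had 7 and 9 counts in PSC, 1 and 1 in D2, and 0 in both DE libraries. Against the same floor it was 6.33-fold lower in DE than in PSC, again without the counting error of the PSC counts. *PSMB10* had 5 and 10 counts in PSC, 9 and 16 in D2, and 7 and 6 in DE, or 0.438 and 0.643 CPM, 0.591 and 1.04 CPM, and 0.426 and 0.386 CPM, and was not tested. The constitutive subunits *PSMB5*, *PSMB6* and *PSMB7* all rose in DE, by 0.48, 0.81 and 0.23 (adjusted p = 3.9e-04, 2.0e-07 and 0.0453), the last a call lost in 10 of 17 alternatives, 5 of which left out 1 library. Per kb of deposited gene length, *PSMB8* made up 0.991% and 1.12% of *PSMB8* and *PSMB5* together in PSC, 0.340% and 0.420% in D2, and 0% and 0.0359% in DE. Of the activator subunits *PSME2* fell in DE (-0.65, adjusted p = 2.7e-06) and *PSME1* rose (0.35, adjusted p = 0.0162), the latter not without PSC replicate 2 or DE replicate 2, by DESeq2 (adjusted p = 0.0695) or with upper quartile scaling (0.17, adjusted p = 0.226).

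Of 4 peptide trimming enzymes tested, *ERAP1*, which trims peptides in the endoplasmic reticulum, fell at D2 (-0.74, adjusted p = 9.7e-04) and in DE (-0.85, adjusted p = 1.2e-04) against PSC, though limma on TPM values made neither call. *NPEPPS*, a cytosolic aminopeptidase, rose in DE (1.28, adjusted p = 1.9e-12), as did *LNPEP* (0.61, adjusted p = 0.00352), the latter not without PSC replicate 1 (adjusted p = 0.0664). *ERAP2* had at most 4 counts in any library. Of 6 folding and loading chaperones, *CANX* (calnexin), which binds newly made heavy chains, had 739 and 747 CPM in PSC, 367 and 401 in D2, and 372 and 404 in DE. It was lower in both later stages, by -0.95 at D2 (adjusted p = 1.3e-08) and -0.94 in DE (adjusted p = 7.2e-09). *CALR* (calreticulin) fell at D2 (-0.58, adjusted p = 2.8e-05) and rose from D2 to DE (0.46, adjusted p = 3.2e-04), *HSPA5* rose in DE (0.72, adjusted p = 3.5e-06), and *TAPBPL*, a tapasin relative that edits peptides outside the TAP complex, fell from D2 to DE (-1.63, adjusted p = 0.00205), a call lost without DE replicate 2 (0.0503) and by DESeq2 (0.0648).

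All 14 transcription regulators on the list were tested, with 3 called at D2 against PSC (1 higher, 2 lower) and 8 in DE against PSC (2 higher, 6 lower), which is 21.4% and 57.1% beside 49.9% and 67.8% of all genes. *IRF1*, an interferon-induced activator of class I and *TAP1* promoters, had 15 and 21 counts in PSC, 32 and 33 in D2, and 10 and 7 in DE. It was lower in DE by -1.32 against PSC (adjusted p = 0.0115; not without PSC replicate 2, without DE replicate 2 or by DESeq2) and by -1.98 against D2 (adjusted p = 1.5e-04). *IRF2* fell by 1.01 at D2 (adjusted p = 0.0083), a call lost by DESeq2 (0.122) and limma on TPM values (0.155 and 0.091), and by 2.01 in DE (adjusted p = 1.2e-05), a call kept under every alternative that tested it. Of the 8 genes for the promoter module bound by *NLRC5*, 3 were called in DE against PSC, all lower, and *RFXAP*, *RFXANK*, *NFYC*, *CREB1* and *ATF1* were not, with values from -0.10 to 0.38. *RFX5* (-0.62, adjusted p = 5.5e-05) and *NFYA* (-0.66, adjusted p = 4.8e-06) were lower in DE than in PSC, though limma on TPM values made neither call. *NFYB* was lower by -0.34 (adjusted p = 0.00355), a call lost without PSC replicate 1 (-0.22, adjusted p = 0.142) and by limma (-0.09, adjusted p = 0.407 and 0.421). *RFXANK* was lower at D2 (-0.71, adjusted p = 1.1e-04) and higher again from D2 to DE (0.73, adjusted p = 4.9e-05). *CIITA*, the class II transactivator, had 16 and 19 counts in PSC and 8 and 9 in DE (-1.28, adjusted p = 0.0174), a call lost without PSC replicate 1, without DE replicate 1 and by DESeq2. *NFKB1*, a subunit of NF-kappaB, rose at D2 (1.46, adjusted p = 3.5e-04) and stood above PSC in DE (1.01, adjusted p = 0.00861), the latter not by DESeq2 (0.0873).

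**Figure D5:**
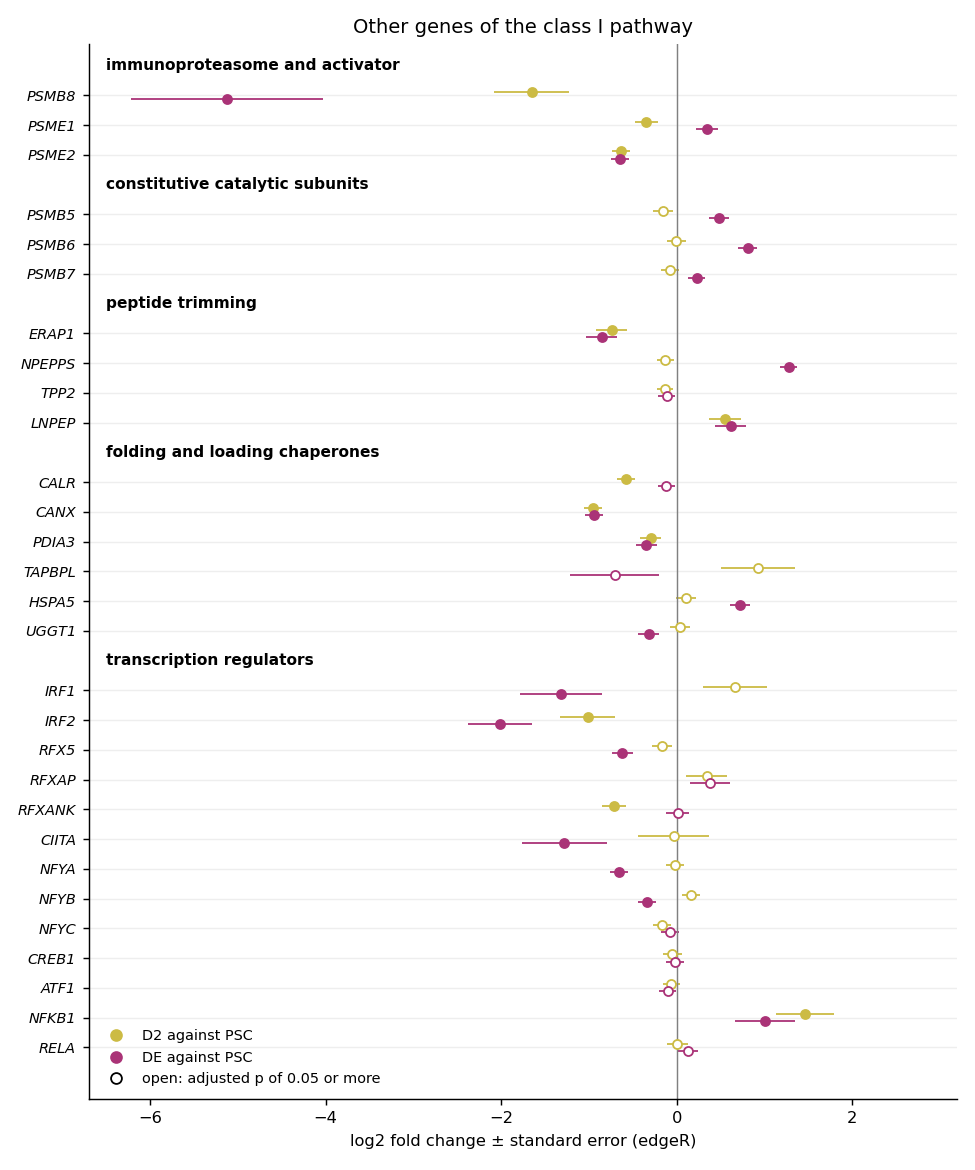
Log2 fold changes (± standard error, edgeR) of other pathway genes that were tested, by role, at D2 and in DE against PSC. Filled points passed an adjusted p under 0.05. PSMB8 lies farthest to the left at -5.13 in DE, NPEPPS is at 1.28 in DE, and the constitutive subunits lie to the right of 0 in DE.

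The interferon pathway and its targets were described by the 3 largest called rises and falls of each list in DE against PSC. Of 10 receptor and signaling genes 4 rose and 3 fell in DE (70%), near the 67.8% of all genes called. *JAK2* (1.48), *IFNGR1* (0.80) and *IFNGR2* (0.58), a kinase and the receptor chains for interferon gamma, had the largest rises, and *IRF9* (-1.45), *TYK2* (-1.20) and *STAT2* (-0.70), parts of type I interferon signaling, fell, the last of these not by limma on TPM values. Of 27 interferon-stimulated genes 17 were tested, and 8 rose and 5 fell in DE (76.5%), beside 67.8% of all genes. *GBP1* had 1 and 0 counts in PSC, 49 and 35 in D2, and 9 and 23 in DE, 27-fold higher in DE than in PSC from the summed counts (95% counting interval 4.51 to 1099). *IFIT2* rose by 4.32 at D2 and 2.85 in DE, from 3 and 7 counts in PSC. *BST2* (tetherin) fell by 1.16 at D2 (adjusted p = 6.9e-08) and rose by 2.79 from D2 to DE (adjusted p = 8.6e-17). *SAMHD1* (-4.01), *IFIH1* (-2.48) and *MX1* (-1.96) had the largest falls in DE, of which *IFIH1* was not called without DE replicate 1 or by DESeq2 and *MX1* not by DESeq2.

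Among 11 class II genes, which present peptides to CD4 T cells, 9 were tested, and 2 rose and 5 fell in DE against PSC (77.8%), beside 67.8% of all genes called and 32.7% called downward. *HLA-DQB1* had 1.67 and 2.96 CPM in PSC, 19.4 and 21.5 in D2, and 8.46 and 9.14 in DE. It was highest in both D2 libraries, with a rise of 3.09 over PSC (adjusted p = 1.8e-13, edgeR), and stood above PSC in DE (1.87, adjusted p = 1.3e-08). *HLA-DRB1* was the other that rose in DE (2.05, adjusted p = 9.3e-04), from 3 and 6 counts in PSC. *HLA-DOA* (-3.90), *CD74* (-3.72), the invariant chain, and *HLA-DPA1* (-2.07) had the largest falls. In DE *HLA-DOA* had 6 and 0 counts (95% interval of its value -5.43 to -2.38) and *CD74* 5 and 3 counts. Of 8 NKG2D ligands, which mark stressed cells for NK cells, 4 were tested, and *MICA* was the 1 called in DE (-1.49, adjusted p = 1.7e-07).

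Genes of the HLA region were taken as a whole for comparison. Between *HLA-E* and *TAPBP* (chr6:30489509-33314284) the table had 203 genes, of which 97 were tested and 67 called in DE against PSC (35 higher, 32 lower; 69.1%), with a median log2 fold change of 0.05, near the share of 67.8% for all genes. The largest rises there among genes of at least 10 CPM in a stage were *DDAH2* (2.96), *HSPA1A* (2.64), *IER3* (2.13), *AGER* (2.12) and *HLA-DQB1* (1.87), and the largest falls *HLA-DPB2* (-4.91), a class II pseudogene, *POU5F1* (-1.86), *EHMT2* (-1.38), *DDX39B* (-1.20) and *DDR1* (-0.80).

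The D2 peak of *B2M* was shared by other genes. Over the 6 libraries the genes with the most similar profile, by Pearson's r of log2(CPM + 0.5) among 9776 genes of at least 10 CPM in a stage, were *SAMD4A* (0.9996), *PLSCR4* (0.996), *RAP1GAP2* (0.995), *STRIP2* (0.995) and *CPXM1* (0.995), and 23 genes reached 0.99. *SAMD4A* went from 6.94 CPM in PSC to 25.3 in D2 and 5.73 in DE. Among the 8 genes the highest values were those of *TAP2* with *HLA-C* (r = 0.868), *TAP2* with *TAPBP* (0.86), *TAP1* with *TAPBP* (0.849) and *TAP1* with *TAP2* (0.824). The lowest were those of *HLA-B* with *TAPBP* (-0.95), *B2M* (-0.811) and *TAP1* (-0.772). The values of *TAP1* rest on 2 to 14 counts a library, so counting error weighs on them. These values describe 6 libraries of 3 stages that share their depth and scaling.

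Other cell types that express much class I were looked for by their markers. Of 7 blood cell markers 1 was at 0 in all libraries (*HBE1*), *CD3E* and *SPI1* had at most 1 count in a library, and the sum was 1.58 and 1.03 CPM in PSC, 0.656 and 0.389 in D2, and 2.44 and 2.25 in DE, where *CD34*, the most abundant, made up 1.46 and 1.22 CPM. Of the blood markers *CD34* alone was tested, and it rose in DE. Of 5 endothelial markers the sum fell from 142 and 139 CPM in PSC to 34.5 and 32.4 in DE, mostly *KDR*, while *VWF* rose and *PECAM1* had 0 counts in PSC and D2 and 6 and 4 in DE. Of 7 fibroblast markers, summing to 114 and 125 CPM in PSC and 43.5 and 38.3 in DE, *THY1* was the most abundant in PSC at 80.1 and 91.9 CPM and stood at 4.26 and 3.41 in DE, *COL1A1* was the most abundant in DE, and *COL3A1*, *DCN* and *LUM* had at most 3 counts in a library. *COL1A1* went from 12.6 and 12.4 CPM in PSC to 38.6 and 33.0 in D2 and 37.0 and 32.6 in DE. It was higher in DE than in PSC (1.48, adjusted p = 4.4e-11, edgeR) but was not called in DE against D2 (-0.04, adjusted p = 0.771). The other 3 fibroblast markers tested fell in DE against PSC. Blood cell markers at or under 2.44 CPM in sum, *VWF* and *COL1A1* thus moved in the direction of *HLA-B* in DE against PSC, and their part in its rise was not tested. The mesoderm sum was 354 and 392 CPM in D2, where *B2M* was highest, against 4.64 and 5.02 in PSC and 194 and 164 in DE, with *MIXL1* the most abundant and *MEOX1* at 0 in all libraries, and its part was not tested. At D2 against PSC 3 of 4 fibroblast, 3 of 4 trophoblast and 2 of 2 endothelial markers tested also rose, while *THY1* and *KRT7* fell. Of those that rose, *COL1A2*, *PDGFRB*, *CDX2*, *TFAP2A* and *KDR* were highest in the D2 libraries, and their part was not tested. Neuroectoderm markers summed to 108 and 98.2 CPM in PSC, mostly *NES*, and 877 and 889 in DE, mostly *OTX2*. All 3 that were tested rose in DE against PSC. Trophoblast markers summed to 2.19 and 2.51 CPM in PSC and 101 and 85.2 in DE, of which *GATA3* alone made up 100.3 and 84.5 CPM. Of the 4 of these 6 markers that were tested *GATA3* rose, *KRT7* fell from 13 and 13 counts in PSC to 0 in DE, and *CDX2* and *TFAP2A* were not called. The part of either list in the changes of class I genes in DE was not tested.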

How the data were processed

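RNA-seq libraries of 3 stages (2 each) were used. The authors aligned reads to hg38 with HISAT2 (version 2.1.1) and deposited raw counts per gene from featureCounts with a gene length. The annotation, strand setting and handling of reads with several matches are not given in the sources used here. Each count column was assigned to its stage from the sample labels.

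Counts were analysed in R 4.3.3 with edgeR 4.0.16 (filterByExpr, TMM factors, glmQLFit and glmQLFTest on all 6 libraries, 3 residual degrees of freedom) and Benjamini-Hochberg adjustment over 18126 genes, called at an adjusted p under 0.05. With 2 libraries a stage the smallest two-sided permutation p is 0.333, so p-values rest on this model. Intervals (95%) came from the fit, or for stages at or under 3 counts a library, and for *NLRC5*, from an exact test of the summed counts, and a floor of 3 counts over the stage was used where a stage had 0. The libraries of a stage differed beyond sampling noise (chi-square per degree of freedom 4.10 to 8.89).

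Alternatives used DESeq2 1.42.0, limma 3.58.1 on log2(TPM + 0.1 or 1) for genes above 2 TPM, other scalings and filters, the compared stages alone, a replicate block and each library left out. The text names all 8 genes, genes of the pathway lists (some of which are counted but not reported here), and the 3 largest called rises and falls of other lists (5 for the HLA region). The genes and lists were chosen with earlier results of these data known. On simulated data for DE against PSC with 18126 genes, the fit recovered 73 of 96 genes changed 2-fold and 90 of 97 changed 4-fold, with 4 other calls. There 200 genes were changed, as many up as down, and all genes were drawn with 1 common dispersion. In the real comparison 67.8% of genes were called, so the simulation does not give error rates for these data. Positions are from GENCODE 44 and promoters from RefSeq, read with Python 3.11.15 (numpy 2.4.6, pandas 2.3.3, scipy 1.17.1, matplotlib 3.10.9). 1 gene of the interferon-stimulated list was not analysed here.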

Additional observations from a re-analysis of the deposited data

How the results depend on the processing

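Among the class I genes the rise and fall of *B2M* around D2, the fall of *HLA-C* in DE against PSC, both falls of *TAP2* in DE, the fall of *TAPBP* from D2 to DE and the rise of *HLA-B* from D2 to DE kept their direction and their call under every alternative that tested them. The number called at D2 against PSC was 1 in place of 2 with library size scaling, with DESeq2, with limma on TPM values with either pseudocount, and without PSC replicate 2, so that leaving out 1 library gave 1 to 3. In DE against PSC it was 3 in place of 5 with DESeq2 and with at least 10 counts in every library, a filter that tested 5 of the genes, and 2 with limma with either pseudocount, which also tested 5. In DE against D2 it was 3 in place of 5 with that filter and with limma with either pseudocount. Of the other pathway genes DESeq2 called 6 in place of 11 at D2, and limma called 5 at D2, 10 in place of 22 in DE against PSC and 11 in place of 19 in DE against D2, with either pseudocount. The split of these genes was 4 higher and 7 lower at D2 with library size scaling in place of 2 and 9, and 9 higher and 6 lower in DE against D2 with DESeq2 in place of 9 and 10. Of all genes limma called 5010 and 5276 at D2 in place of 9041, and 6856 with the pseudocount of 0.1 in DE against D2 in place of 10750. In DE against PSC it called 5924 and 5997 higher and 2884 and 2934 lower, where edgeR called 6366 and 5927. Of 61 results for other named genes 44 kept their call in every alternative. The cause of these differences was not tested.

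The sign turned only in values that were not called. *TAP1* at D2 against PSC was 0.00825 with library size scaling and ranged from -0.47 to 0.56 with 1 library left out, at 0.56 without PSC replicate 2 and 0.17 without D2 replicate 1. *HLA-E* in DE against PSC was 0.0429 and 0.0379 with limma on TPM values, and *B2M* 0.12 and 0.11. *HLA-E* in DE against D2 was 0.00291 without a low count filter, 0.0112 with DESeq2, 0.0710 and 0.0622 with limma, 0.06 without D2 replicate 2 and 0.12 without DE replicate 1. Upper quartile scaling made calls of *HLA-E* (-0.37, adjusted p = 0.046) and *B2M* in DE against PSC and of *HLA-C* in DE against D2 (-0.41, adjusted p = 0.0156). The median of all genes moved to 0.13 at D2 and 0.11 in DE with library size scaling, to -0.15 and -0.19 in DE against PSC and D2 with upper quartile scaling, and to between 0.11 and 0.32 with limma on TPM values.

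The labels give no pairing of same-numbered libraries, and the correlation of their deviations was between -0.03 and -0.01. A replicate block left the class I genes called at 2, 5 and 5, the other pathway genes at 9, 20 and 19 and all genes at 8503, 11936 and 10326 in the 3 comparisons, and ended the call of *PSMB7* (adjusted p = 0.0838) in DE against PSC. Depth limited *TAP1*, *NLRC5*, *HLA-F*, *HLA-G* and the immunoproteasome subunits, which had between 0 and 41 counts a library. It also limited *HLA-DOA* and *CD74*, under 10 counts in each DE library, and *HLA-DRB1* and *IFIT2*, under 10 counts in each PSC library.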
